A study of Mus musculus with 9 samples.

Results

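The genes described here encode the enzymes that cut, protect and crosslink the extracellular matrix: matrix metalloproteinases (Mmp), their tissue inhibitors (Timp), the secreted ADAMTS proteases (Adamts), lysyl oxidases (Lox) and procollagen lysyl hydroxylases (Plod). They were measured by RNA sequencing of embryonic day 18.5 cortex from C57BL/6J mice, with 3 libraries each of wild-type (WT), Cyfip2 heterozygous (Het) and Cyfip2 homozygous mutant (KO, labelled knockout) genotype. Cyfip2 belongs to the WAVE complex, through which Rac signals drive branched actin assembly, and the labels do not describe the mutant allele. The labels name no separate embryos or litters, so p-values measure the spread between libraries, which may be partly technical. Het and KO each hold female and male libraries, as Y-linked expression shows below, so those groups are not all repeats of the same embryo. For WT, where all libraries are male, this is not known. Members were chosen by gene symbol: 47 of the 18820 genes in the table carried such a symbol, and 43 had a mean normalized count of at least 10 over the 9 libraries and were tested among 15069 genes. These were 13 of 16 Mmp genes, all 4 Timp genes, all 19 Adamts genes, 4 of 5 Lox family genes and all 3 Plod genes. The 4 below that mean were Mmp8, Mmp13, Mmp21 and Loxl4, with values between 0 and 9.29 in any library. Just inside it lay Timp4, with a mean of 16.6, and Mmp19, with 18.8, while Loxl4 just outside had 3.59.

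Metalloproteinases are made as inactive precursors, and the membrane-bound members act at the cell surface, where Mmp14 together with Timp2 activates the gelatinase Mmp2. Timps block the active site of these enzymes, and Timp3, which binds the matrix, also blocks several ADAMTS proteases. ADAMTS proteases fall into groups that cut lecticans such as versican, that trim the amino-terminal propeptide of fibrillar collagens, or that act on fibrillin microfibrils and other targets. Plod enzymes hydroxylate lysines of collagen inside the cell, and Lox enzymes oxidise lysines outside it, which starts the crosslinks of collagen and elastin. In developing brain, fibrillar collagen and its modifying enzymes are known mainly from meninges and vessels, whereas several membrane-type Mmp genes are known from neurons.

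Cyfip2 checked the labels first, with normalized counts of 10169 to 11174 in WT, 8969 to 9882 in Het and 7522 to 8255 in KO, 3 ranges that did not overlap. The value covers the whole gene and does not show which part of it was mutated. Normalized totals were 36.03 to 38.56 M normalized counts per library, and the value of 1 read, taken from the spacing of low values, gave approximate depths of 29.5 M reads in KO replicate 1 to 54.4 M reads in WT replicate 2. The cortical neuron genes Tbr1 (8835 to 11543) and Neurod6 (19275 to 32658) were high in all 9 libraries. Libraries also differed in ways that the genotype does not give. Het replicate 3 was poor in meningeal RNA, with the fibroblast gene Dcn at 23.9 against 898 to 2227 in the other 8 and Col1a1 at 87.2 against 2206 to 5328. The olfactory bulb gene Cdhr1 was at 2138 to 3436 in WT replicate 3, Het replicate 1 and KO replicates 1 and 2, and at 21.8 to 53.1 in the other libraries. The Y-linked gene Ddx3y was listed at 0 in Het replicate 1 and KO replicates 1 and 2, which marks them as female. In bulk tissue, fewer cells of a type and less RNA per cell cannot be told apart.

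Levels of different genes were compared per length, as normalized counts per kb of annotated exon, averaged over the 9 libraries. The inhibitor Timp2 had the highest level, 1368 per kb, with normalized counts of 5072, 6148 and 5475 in WT, 4568, 5269 and 5107 in Het, and 4890, 6087 and 5340 in KO. The 3 genotypes overlapped throughout. Next came Mmp24, a membrane-type metalloproteinase of neurons, at 1245 per kb. Its normalized counts were 5120, 6090 and 6838 in WT, 5068, 5525 and 6790 in Het, and 4947, 5388 and 6721 in KO, and replicate 3 was the highest library of each genotype.

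The other surface-bound Mmp genes were also well expressed: Mmp17, held by a lipid anchor, at 631 per kb, and the transmembrane members Mmp14, Mmp15 and Mmp16 at 367, 344 and 251. Mmp25, the second lipid-anchored member, was lower, at 16.1 per kb, and Mmp23, a membrane-anchored member that is released by cleavage, was at 56.6. Among the secreted members, Mmp11 reached 249 per kb and the gelatinases Mmp2 and Mmp9 150.03 and 129. Mmp12, the macrophage elastase, was at 18.2 per kb, Mmp28 at 49.3 and Mmp19 at 5.33. The Timp genes spanned the widest range of the 5 families as a ratio, from 1368 per kb for Timp2 to 198 for Timp3, 33.2 for Timp1 and 2.82 for Timp4.

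Among ADAMTS genes, Adamts3, one of the enzymes that trim procollagen and known also to cleave reelin, had the highest level, 652 per kb. Its normalized counts were 3525, 3682 and 3088 in WT, 3399, 3912 and 3802 in Het, and 3184, 3411 and 3865 in KO, and the genotypes overlapped. The related propeptidases Adamts2 and Adamts14 were at 119 and 20.1 per kb. Adamts10, which acts on fibrillin microfibrils, was at 473 and Adamts7 at 350. Among those that cut lecticans, Adamts20, Adamts1 and Adamts4 were at 126, 149 and 87.6 per kb, and Adamts9, Adamts15, Adamts8 and Adamts5 at 36.2, 28.2, 22.9 and 12.4.

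Plod3, which also adds sugars to the hydroxylysines it makes, led its family at 667 per kb, against 124 for Plod2 and 100.2 for Plod1. Its normalized counts were 2924, 2945 and 2826 in WT, 3020, 3344 and 2994 in Het, and 3046, 2916 and 3100 in KO, and Het lay above WT without overlap. Of the lysyl oxidases, Loxl1, which is needed for elastic fibres, had 248 per kb, Lox 133, Loxl2 107 and Loxl3 61.3. Loxl1 normalized counts were 931, 783 and 844 in WT, 679, 960 and 978 in Het, and 787, 670 and 731 in KO, so that KO lay low but overlapped WT by 1 library.

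**Figure D1:**
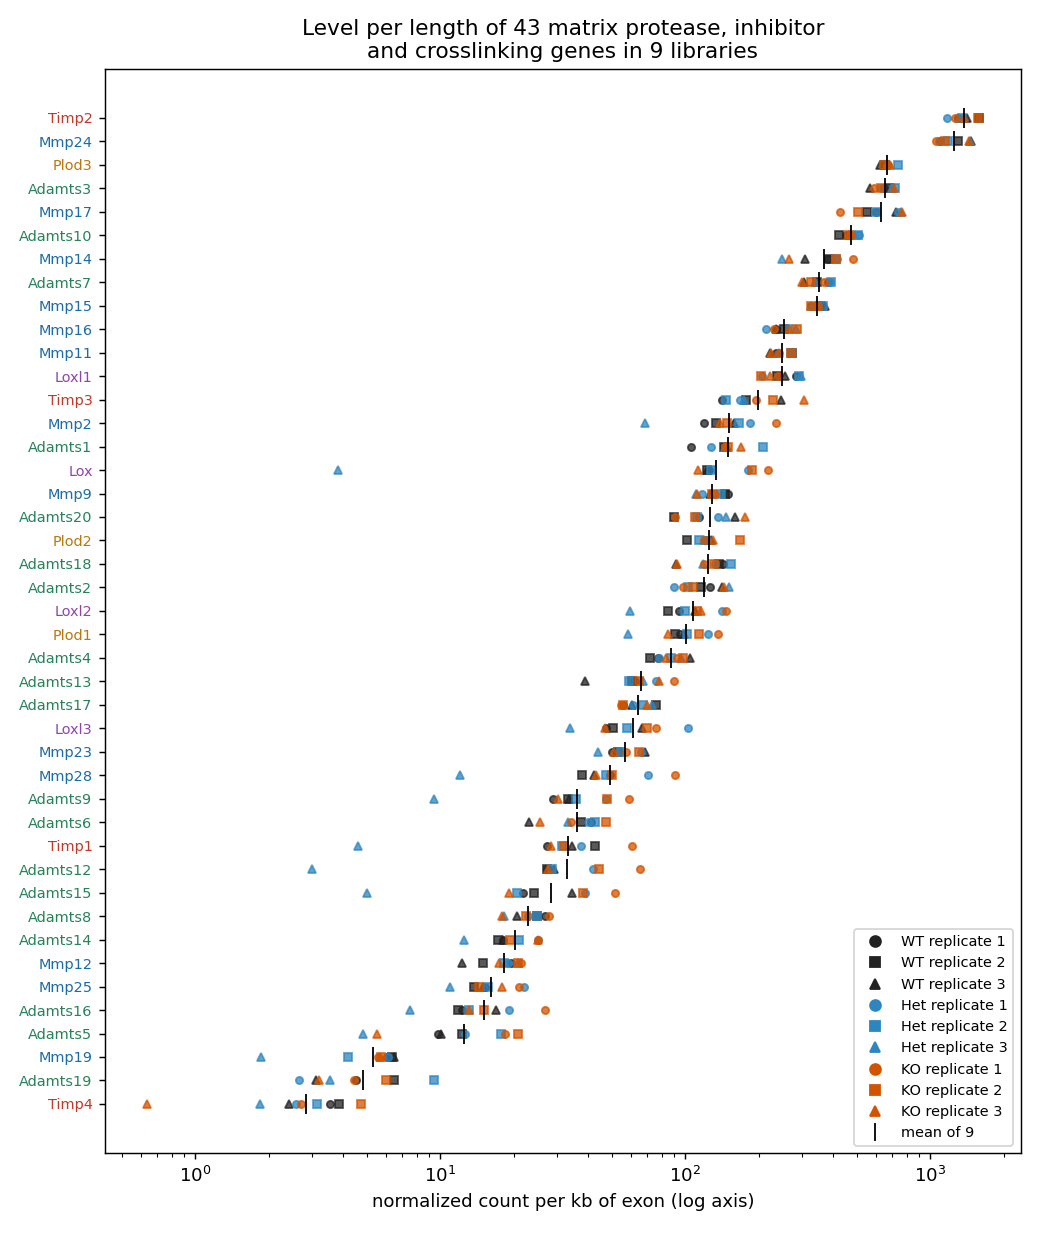
Normalized count per kb of annotated exon (log axis) of the 43 members in each of the 9 libraries, with genotype as colour, replicate as symbol and the mean of 9 as a black tick; gene labels are coloured by family. Timp2 and Mmp24 stand at the top, at 1368 and 1245 per kb, and the single points far to the left are mostly Het replicate 3.

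3 Timp genes lie within the bounds of synapsin genes on the opposite strand in GENCODE M21 (GRCm38): Timp1 (chromosome X, 20870166 to 20874735, plus strand) within Syn1, Timp3 (chromosome 10, 86300372 to 86349506, plus strand) within Syn3, and Timp4 (chromosome 6, 115241892 to 115252205, minus strand) within Syn2. The library kit keeps strand, but the sources used here do not state whether the counting used it, so a share of reads from the host gene is uncertain for these 3. Among members, 2 pairs are neighbours: Adamts1 and Adamts5 lie 53.1 kb apart on chromosome 16, and Adamts15 and Adamts8 lie 20.1 kb apart on chromosome 9.

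Het replicate 3 was the library in which the members varied most. Of the 43, 18 had their lowest value of the 9 libraries there, where 18.8% of all genes tested did, and 10 lay more than 1 log2 unit below the mean of the other 8, where 7.21% of all genes did. None lay more than 1 log2 unit above it (0.571% of all genes), and 2, Adamts2 and Loxl1, had their highest value there (16.8% of all genes).

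The gene furthest below was Lox, which starts collagen and elastin crosslinks. Its normalized counts were 599, 588 and 586 in WT, 863, 607 and 18.3 in Het, and 1037, 897 and 539 in KO. Het replicate 3 thus held 2.56% of the mean of the other 8, while the 3 WT libraries lay close together. Adamts12, a protease known to cut cartilage oligomeric matrix protein, stood at 298, 296 and 319 in WT, 460, 313 and 32.6 in Het, and 710, 487 and 301 in KO, so that Het replicate 3 held 8.19% of the mean of the others. Timp1 stood at 24.2, 38.0 and 30.6 in WT, 33.2, 27.8 and 4.08 in Het, and 53.7, 28.2 and 25.2 in KO. Its Het replicate 3 value, 12.5% of the mean of the others, rests on few reads, since 1 read was worth about 1.07 in that library.

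Adamts15, a lectican protease, was at 225, 250 and 356 in WT, 404, 213 and 52.0 in Het, and 534, 395 and 198 in KO. Mmp28, a secreted protease, was at 191, 147 and 164 in WT, 273, 184 and 46.4 in Het, and 352, 194 and 167 in KO. In both genes the libraries of the 3 genotypes overlapped once Het replicate 3 was set aside. Adamts9, also a lectican protease, was at 433, 497 and 505 in WT, 714, 538 and 142 in Het, and 889, 723 and 456 in KO. Mmp19 was at 21.5, 22.4 and 22.9 in WT, 14.8 in Het replicate 2, 21.6 in Het replicate 1, 6.53 in Het replicate 3, and 19.7, 20.1 and 20.1 in KO. Adamts5, an aggrecan-cutting protease, was at 105, 133 and 108 in WT, 136, 191 and 52.3 in Het, and 198, 225 and 59.5 in KO. Here KO replicate 3 was nearly as low as Het replicate 3. The other 2 of the 10 were Mmp2, at 231 in Het replicate 3 against 403 to 788 elsewhere, and Adamts16, at 51.4 against 80.6 to 183.

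The crosslinking and collagen-modifying genes Loxl2, Loxl3 and Plod1 were between 52.1% and 55.2% of the mean of the other libraries in Het replicate 3. Within the same families, Loxl1 stood at 122%, Plod2 at 95.6% and Plod3 at 99.3%. Among inhibitors, Timp2 stood at 95.3% and Timp3 at 86.1%, and the low Timp4 at 62.2%. Among surface proteases, Mmp24 stood at 119%, Mmp17 at 124%, Mmp16 at 115% and Mmp15 at 94.3%, while Mmp14 was at 64.6%, Mmp25 at 65.1% and Mmp23 at 75.6%. The procollagen propeptidases went both ways: Adamts14 stood at 59.2%, Adamts3 at 108% and Adamts2 at 130%.

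Beside these values, markers of other cell types were low in the same library. The 23 meningeal fibroblast markers summed to 4614 normalized counts in Het replicate 3 and to between 28718 and 62050 in the other 8 libraries. The sums were 7574 against 11639 to 17175 for 15 pericyte and smooth muscle markers, 10479 against 16751 to 25579 for 18 endothelial markers, and 2572 against 4546 to 7336 for 18 microglia and macrophage markers. None of these lists was at 0. The sum of choroid plexus markers, 99.5, was also below that of every other library. Sums of striatal projection neuron, cortical neuron and olfactory bulb markers lay within the range of the other libraries. Their part in the values of the members was not tested.

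**Figure D2:**
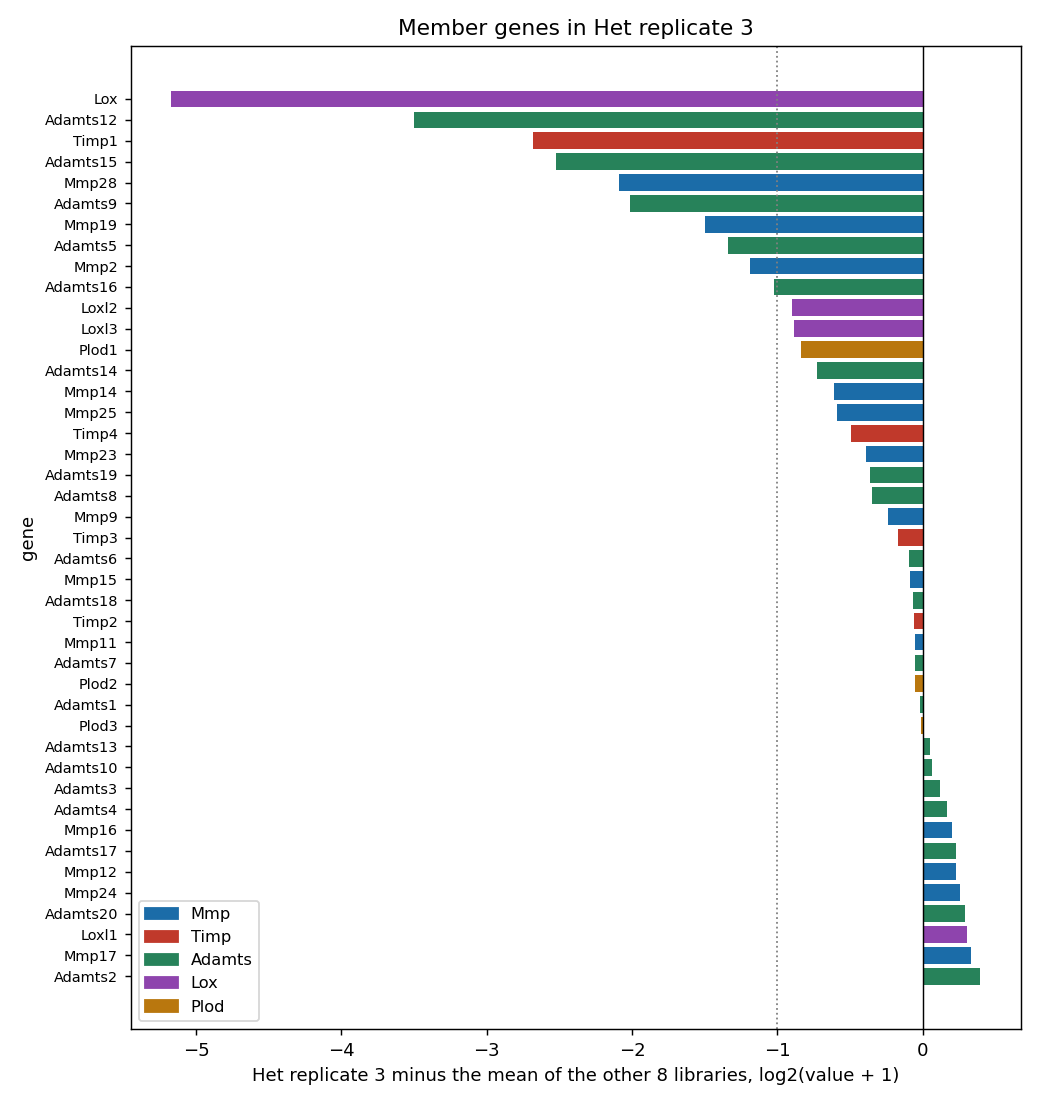
Difference between Het replicate 3 and the mean of the other 8 libraries on the log2(value + 1) scale for each of the 43 members, coloured by family; the dotted line marks 1 log2 unit below. 10 members pass that line, with Lox the furthest at -5.17, and Adamts2 is the highest at 0.40.

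The 10 members that were low in Het replicate 3 also differed between the other 8 libraries; they were singled out after their values were seen, so this is a description. Their median log2 difference from the WT mean was 0.85 in KO replicate 1, 0.38 in KO replicate 2, -0.10 in KO replicate 3, 0.52 in Het replicate 1 and 0.04 in Het replicate 2. 8 of the 10 had the highest of these 8 values in KO replicate 1, as did 7 of the other 33 members and 15.7% of all genes tested. The corresponding medians of the 33 lay between -0.01 and 0.13 in all 8 libraries. The 1086 genes of the whole table that were more than 1 log2 unit lower in Het replicate 3 had medians of 0.72, 0.38 and -0.13 in KO replicates 1, 2 and 3. Of those 1086 genes, picked by the same limit as the 10 members, 57.4% had the highest of these 8 values in KO replicate 1. Het replicate 1 and KO replicates 1 and 2, the libraries with the highest medians, are the 3 female libraries with olfactory bulb RNA, and the meningeal marker sum was highest in them too (53076, 62050 and 41279 against 28718 to 36494 in WT). The part of sex, dissection and meningeal RNA in these values was not tested.

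**Figure D3:**
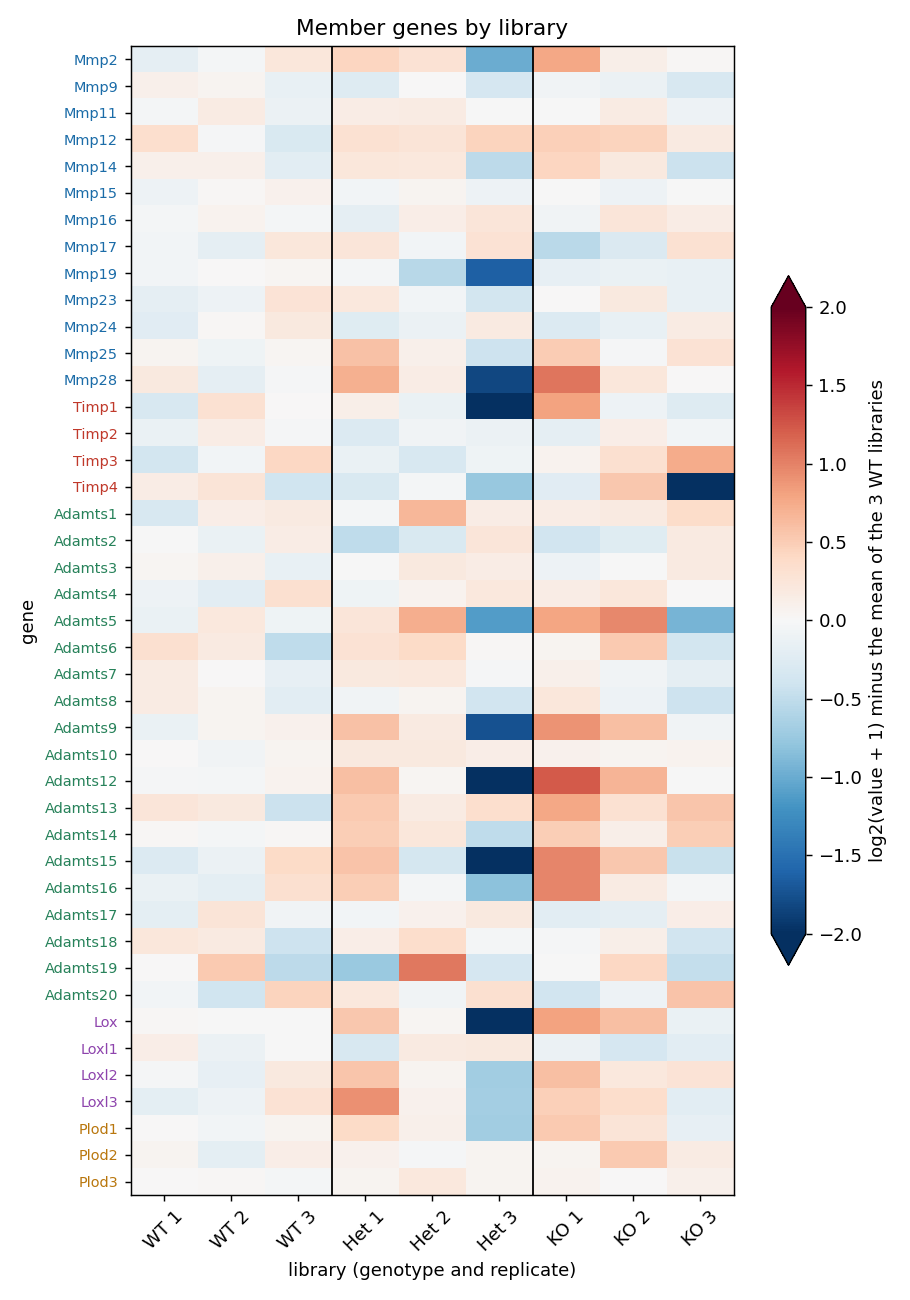
Log2(value + 1) of each member in each library minus the mean of the 3 WT libraries, with libraries in columns, genes in rows grouped by family, and colours capped at 2 log2 units either way. Het replicate 3 holds most of the dark blue cells (Lox, Adamts12, Timp1, Adamts15), KO replicate 1 is red in the same rows, and Timp4 is dark blue in KO replicate 3, where its value was 3.73.

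Promoters are shown for genes that fell together in Het replicate 3 and for a gene that did not, as RefSeq sequence (GRCm38.p6) of the 250 bases before the annotated start, 5′ to 3′ on the gene's strand. Capitals mark GC boxes (GGGCGG on either strand, the site of Sp1-family factors), and Adamts12 has none in this window.
Adamts12, chr15:11064523-11064772, plus strand: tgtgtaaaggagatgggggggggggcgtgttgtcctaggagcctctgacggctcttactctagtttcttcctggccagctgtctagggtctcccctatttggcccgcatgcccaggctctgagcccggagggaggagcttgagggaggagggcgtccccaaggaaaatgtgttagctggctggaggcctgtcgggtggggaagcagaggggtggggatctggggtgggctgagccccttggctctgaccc
Timp1, chrX:20869916-20870165, plus strand: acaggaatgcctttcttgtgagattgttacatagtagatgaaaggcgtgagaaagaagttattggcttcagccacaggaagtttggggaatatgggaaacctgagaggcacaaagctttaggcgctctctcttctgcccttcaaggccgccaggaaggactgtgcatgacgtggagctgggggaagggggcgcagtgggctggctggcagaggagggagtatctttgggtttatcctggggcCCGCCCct
Mmp28, chr11:83463041-83463290, minus strand: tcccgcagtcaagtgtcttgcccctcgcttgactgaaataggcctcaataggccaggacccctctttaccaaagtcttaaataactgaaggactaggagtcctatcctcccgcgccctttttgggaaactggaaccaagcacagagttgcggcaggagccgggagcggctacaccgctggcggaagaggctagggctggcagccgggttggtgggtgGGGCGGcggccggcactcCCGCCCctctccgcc
Mmp24, chr2:155775092-155775341, plus strand: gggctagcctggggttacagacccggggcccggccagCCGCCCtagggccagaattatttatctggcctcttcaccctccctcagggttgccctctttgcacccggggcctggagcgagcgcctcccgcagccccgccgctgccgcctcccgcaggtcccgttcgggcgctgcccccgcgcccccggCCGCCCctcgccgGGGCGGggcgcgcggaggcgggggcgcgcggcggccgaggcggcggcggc

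The Mmp24 window is the richest in G and C of the 4, at 79.2%, against 63.2% for Adamts12, 62.0% for Mmp28 and 54.4% for Timp1. It holds 33 CG steps, against 6 in Adamts12, 6 in Timp1 and 15 in Mmp28. These windows overstate the contrast, since Mmp24 is the richest in G and C of all members with a sequence. The median was 10.5 CG steps (6 to 22) in the 4 such members of the low group and 15.5 (0 to 35) in the other 20. A GC box was held by 3 of those 4 and by 14 of the other 20. Of the 24 members with a RefSeq promoter in the table, 17 held a GC box, as did 32.7% of 32817 promoter windows of this length, and 0 held the AP-1 motif TGANTCA, present in 6.75% of windows. A TATA box (TATAAA) was found in Adamts1 and Plod1, and in 12.4% of windows. The windows were not limited to genes tested here, so these shares are not matched for expression or GC content. GC content in the 4 members of the low group with a sequence was 54.4% to 71.2%, within the 40.0% to 79.2% of the other 20. Its median was 62.6% in those 4, 64.4% in the other 20 and 52.4% over all 32817 windows. These matches describe letters in the window and not binding.

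The comparison of KO with WT asked how these genes differ when both copies of Cyfip2 are mutant. No member passed an adjusted p under 0.05, nor did any gene tested (0%), with limma over all 9 libraries. At an unadjusted p under 0.05 there was 1 member, Adamts13, which was higher, against 1.18% of all genes (0.544% higher, 0.637% lower). Of the 43 members, 29 had a log2 fold change above 0, against 48.4% of all genes, with a median of 0.07 against -0.0042 over all genes. For 29 of 43 members the 95% interval of the log2 fold change lay between -1 and 1.

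Adamts13, the protease that cuts von Willebrand factor, stood at 305, 298 and 191 in WT and 441, 319 and 383 in KO, with Het between at 374, 290 and 329. All 3 KO values were above all 3 WT values, and the log2 fold change was 0.54 ± 0.21 (SE; adjusted p = 1.00). It was 0.32 without WT replicate 3, the lowest of the 9, and 0.34 without the 4 libraries with olfactory bulb RNA. Mmp12 was at 140, 108 and 88.9 in WT, 137, 132 and 150.2 in Het, and 154, 150.1 and 126 in KO, with a log2 fold change of 0.37 ± 0.19 that did not pass and was 0.03 without the 4 libraries with olfactory bulb RNA. WT replicate 1 overlapped the other genotypes. Plod2 was at 648, 545 and 683 in WT and 645, 900 and 699 in KO (log2 0.25 ± 0.14), with Het at 660, 612 and 644. KO replicate 2 was the highest of the 9, and without it the log2 fold change was 0.11. 

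Groups did not overlap for 5 of 43 members, where 6.46% of all genes tested had groups that did not overlap (3.17% higher, 3.3% lower). 4 were higher in KO: Adamts13, Adamts10 (log2 0.07 ± 0.05), Adamts14 (KO 120.0 ± 17.6, WT 92.2 ± 2.43; SD, n = 3) and Loxl2 (KO 671 ± 103, WT 521 ± 67.4). Mmp19 was lower, with KO at 20.0 ± 0.27 and WT at 22.3 ± 0.72 (SD, n = 3). Without KO replicate 3 the number was 17, where 29.5% of all genes had groups that did not overlap, and without WT replicate 3 it was 13, against 18.3% of all genes; smaller groups overlap less by construction.

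By family, 8 of 13 Mmp genes, 2 of 4 Timp genes, 13 of 19 Adamts genes, 3 of 4 Lox family genes and all 3 Plod genes had values above 0, with medians of 0.02, 0.06, 0.07, 0.29 and 0.20. Of the 10 members low in Het replicate 3, a set chosen after its values were seen, 9 had values above 0 with a median of 0.36, against 20 of the other 33 with a median of 0.03. Among the 1086 genes of the whole table picked by the same limit, 917 had values above 0, with a median of 0.31. The split is thus not particular to the members. With sex as a covariate the median over all 43 members was -0.05, and in the fit without the 4 libraries with olfactory bulb RNA, which leaves 1 KO library, it was 0.02. All WT libraries are male, and the female Het and KO libraries are the ones with olfactory bulb RNA. The sex covariate therefore cannot tell sex apart from olfactory bulb RNA.

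**Figure D4:**
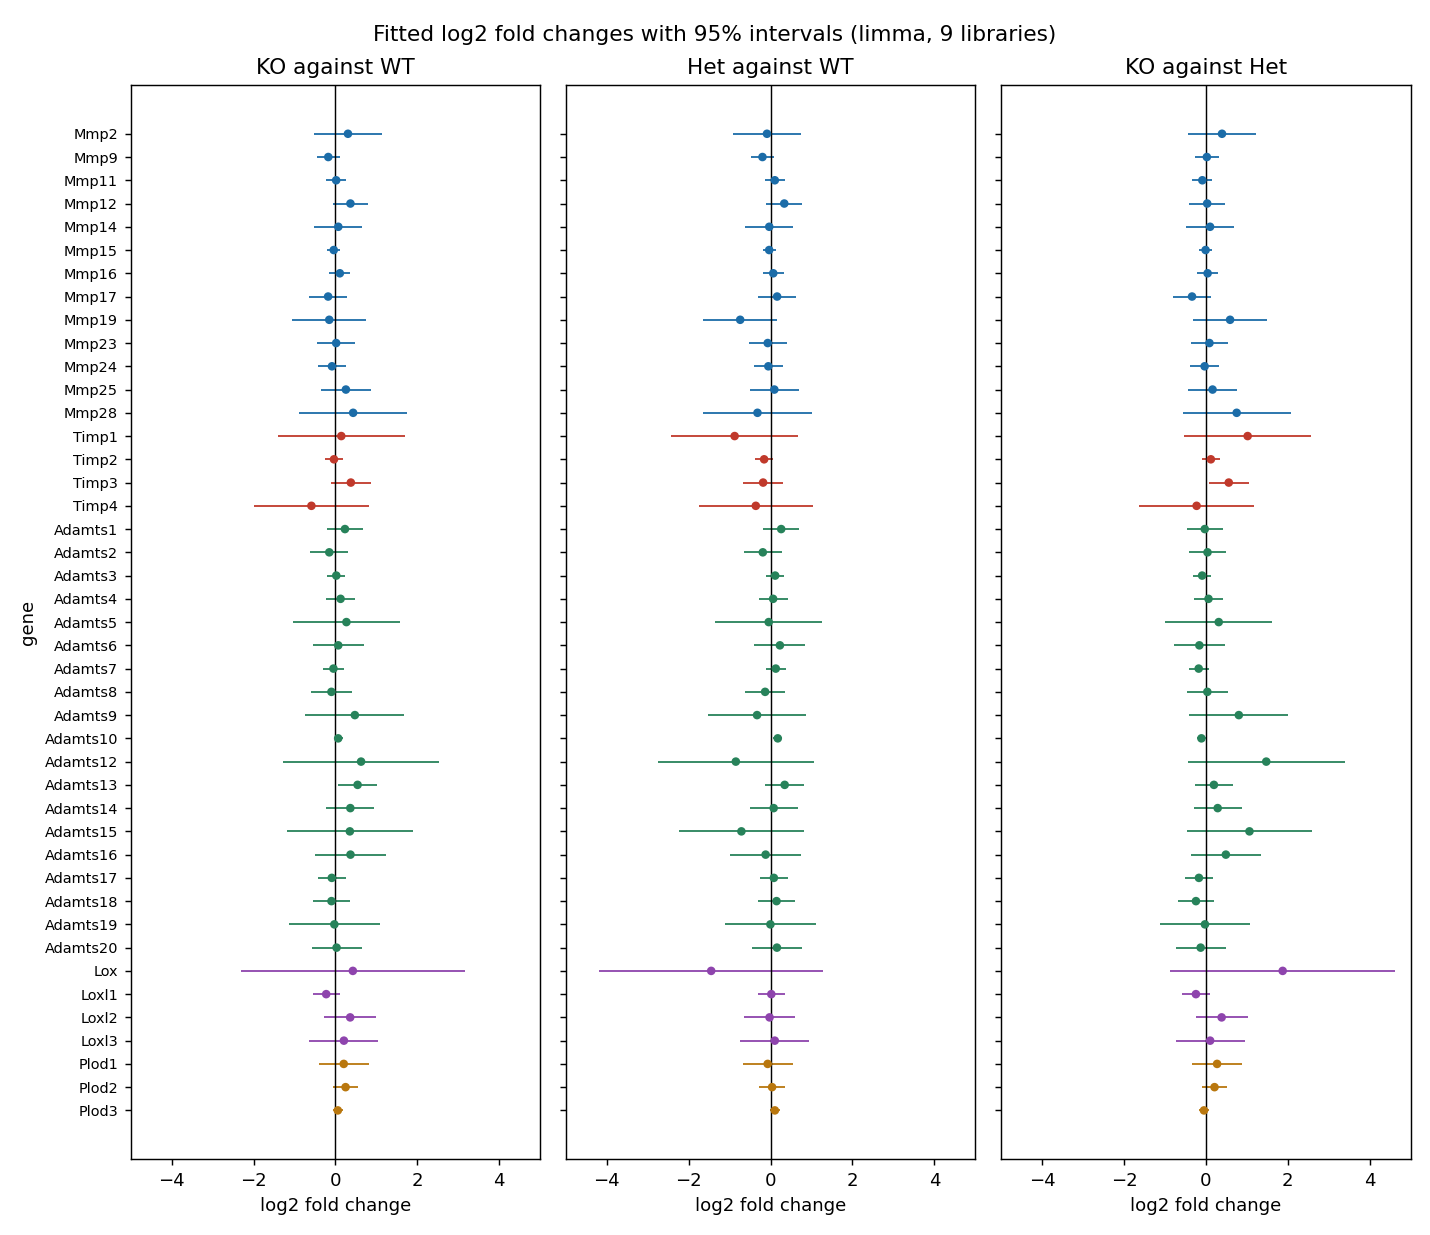
Fitted log2 fold change of each of the 43 members in KO against WT, Het against WT and KO against Het, as points with 95% intervals from limma over 9 libraries, coloured by family. The intervals of the abundant Timp2, Mmp24 and Plod3 are short, and those of Lox, Adamts12 and Timp1, genes that were low in Het replicate 3, are the widest in view.

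Het libraries were set against WT to see what changes with 1 mutant copy. No member and no gene passed (0%), and 1 member, Adamts10, was higher at an unadjusted p under 0.05, against 1.61% of all genes (0.962% higher, 0.644% lower). 20 of 43 members had a log2 fold change above 0, against 46.2% of all genes, with a median of -0.03 against -0.0099. Adamts10 stood at 3723, 3502 and 3837 in WT, 4236, 4197 and 4053 in Het, and 3900, 3837 and 3853 in KO. All 3 Het values were above the other 6, and the log2 fold change was 0.18 ± 0.05 (adjusted p = 1.00), ranked 16 of 15069 by p. Plod3, with the values above, had 0.10 ± 0.06, and these were the 2 members whose groups did not overlap, both higher, where 6.67% of all genes had such groups (3.36% higher, 3.31% lower). The log2 fold changes of Mmp12 and Mmp19 were 0.33 ± 0.19 and -0.74 ± 0.40, and neither passed; that of Mmp19 was -0.30 without Het replicate 3.

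Genes low in Het replicate 3 had the largest negative values: -1.45 ± 1.21 for Lox, -0.88 ± 0.68 for Timp1 and -0.85 ± 0.84 for Adamts12. Without that library the values were 0.29 for Lox, -0.002 for Timp1 and 0.32 for Adamts12. In that fit 30 of 43 members lay above 0, against 50.5% of all genes, with a median of 0.16 against 0.0018. The number of members whose groups did not overlap was then 12, where 21.9% of all genes had such groups.

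KO libraries were last compared with Het libraries. No member and no gene passed (0%), and 1 member, Timp3, was higher at an unadjusted p under 0.05, against 3.59% of all genes (1.42% higher, 2.17% lower). 27 of 43 members had a log2 fold change above 0, against 50.4% of all genes, with a median of 0.07 against 0.0016; without Het replicate 3 the median was -0.04 and 19 members lay above 0. Timp3 stood at 1153, 1445 and 2000 in WT, 1355, 1194 and 1407 in Het, and 1575, 1862 and 2493 in KO. The KO values were all above the Het values, and WT reached across both. Its log2 fold change was 0.56 ± 0.21 against Het (adjusted p = 0.942) and 0.38 ± 0.21 against WT (adjusted p = 1.00). With single libraries left out it ran from 0.38 to 0.71 against Het and from 0.19 to 0.59 against WT. Without the 4 libraries with olfactory bulb RNA, which leaves 1 KO library, it was 0.94 against Het and 0.95 against WT. With sex as a covariate it was 0.54 against WT. Adamts10 was lower in KO than in Het without overlap, by a log2 fold change of -0.11 ± 0.05, so that 2 members had groups that did not overlap, against 7.82% of all genes (3.15% higher, 4.68% lower). Neither passed.

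Adamts12 and Loxl1, with the values above, had log2 fold changes of 1.48 ± 0.84 and -0.24 ± 0.15, which were 0.31 and -0.15 without Het replicate 3. Without Het replicate 1 that of Loxl1 was -0.41. The labels pair no Het library with a KO library, and a pairing by replicate number, taken from the same data, is uncertain. With the replicate number as a block over all 9 libraries, 5 members had an unadjusted p under 0.05. Timp3 (log2 0.56 ± 0.13) and Timp2 (0.12 ± 0.04) were higher in KO. Adamts7 (-0.17 ± 0.05), Adamts18 (-0.24 ± 0.09) and Mmp17 (-0.34 ± 0.14) were lower. None passed over all genes (adjusted p = 0.673 for each), and 984 of all genes had an unadjusted p under 0.05 in that fit.

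Values of the members not yet given by library follow, as lowest to highest of the 9 libraries in normalized counts. Among proteases at the surface, Mmp15 ran from 1755 to 2007, Mmp16 from 1850 to 2476, Mmp17 from 2828 to 5085, Mmp14 from 1472 to 2871, Mmp25 from 58.0 to 116 and Mmp23 from 103 to 160.1. Mmp17 was at 4811 to 5085 in WT replicate 3, Het replicates 1 and 3 and KO replicate 3, and lowest in KO replicate 1. Of the secreted Mmp genes, Mmp9 ran from 391.8 to 529 and Mmp11 from 616 to 754. Timp4 ran from 3.73 to 28.0.

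Among ADAMTS genes, Adamts1 ran from 556 to 1103, Adamts2 from 836 to 1401, Adamts4 from 345 to 501, Adamts6 from 180 to 369 and Adamts7 from 1888 to 2479. Adamts8 ran from 82.1 to 129, Adamts17 from 425 to 589, Adamts18 from 929 to 1566, Adamts19 from 37.1 to 132 and Adamts20 from 806 to 1572. Adamts1, Adamts3, Adamts7, Adamts18, Adamts19 and Plod3 were highest in Het replicate 2, 6 of 43 members against 9.06% of all genes. The choroid plexus gene Ttr was also highest there, at 11029, and its relation to these 6 was not tested. Adamts20 was highest in KO replicate 3 and WT replicate 3, the libraries with the most Timp3. Loxl3 ran from 155 to 472, with its highest value in Het replicate 1, and Plod1 from 394 to 919.

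Partner genes of these enzymes were taken from 3 lists, and 0 members of any list passed in any comparison. Of 21 genes that mature collagen with Plod and Lox enzymes, 15 lay above 0 in KO against WT (median log2 0.09), 7 in Het against WT (-0.11) and 15 in KO against Het (0.11). The smallest p were those of P4ha1 (0.27 ± 0.22) and Fkbp10, a collagen chaperone (0.42 ± 0.42), against WT in KO, P4ha2 (-0.29 ± 0.18) and P3h3 (0.13 ± 0.09), both collagen prolyl hydroxylases, in Het, and P3h4 (0.26 ± 0.12) and Fkbp10 (0.70 ± 0.42) in KO against Het. Of 23 tested protease activators, inhibitors and relatives, 19, 8 and 20 lay above 0 in the same order, with medians of 0.09, -0.05 and 0.15.

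In that second list, Adamtsl5, an ADAMTS relative without protease activity, averaged 38.9 ± 15.5 in KO against 19.5 ± 1.49 in WT (SD, n = 3; log2 0.89 ± 0.32), and the membrane protease Adam12 1152 ± 268 against 794 ± 93.9 (0.52 ± 0.26). With sex as a covariate these log2 values were 0.51 and 0.13, and without the 4 libraries with olfactory bulb RNA 0.32 and 0.20. In Het the smallest p were those of Adamtsl4 (-0.49 ± 0.30) and Adamtsl2 (0.35 ± 0.22), and in KO against Het those of Adam12 (0.67 ± 0.26, or 0.37 without Het replicate 3) and Adam10 (0.08 ± 0.04). Of 26 substrates, 23 lay above 0 in KO against WT (median 0.34), 7 in Het against WT (-0.12) and 23 in KO against Het (0.43), where 48.4%, 46.2% and 50.4% of all genes did. Values for markers of other cell types were these. In KO against WT, 23 of 23 meningeal fibroblast markers (median 0.39), 14 of 14 tested pericyte and smooth muscle markers (0.33) and 17 of 18 endothelial markers (0.28) lay above 0. So did 14 of 16 striatal projection neuron markers (0.37), 15 of 18 microglia and macrophage markers (0.11) and 6 of 10 olfactory bulb markers (0.08). Fewer lay above 0 among choroid plexus markers, 4 of 9 tested (-0.17), and cortical neuron markers, 2 of 10 (-0.09). In Het against WT 0 of 23 fibroblast markers lay above 0 (-1.20). So few were also found among pericyte (2 of 14), endothelial (2 of 18), microglia (1 of 18) and choroid plexus markers (1 of 9). More lay above 0 among olfactory bulb (6 of 10), striatal (12 of 16) and cortical neuron markers (9 of 10). In KO against Het, 23 of 23 fibroblast markers lay above 0 (1.73), as did 14 of 14 pericyte, 17 of 18 endothelial and 18 of 18 microglia markers. The numbers were 5 of 9 for choroid plexus, 7 of 10 for olfactory bulb, 12 of 16 for striatal and 2 of 10 for cortical neuron markers. Without Het replicate 3, 23 of the 26 substrates lay above 0 in Het against WT (0.28) and 15 in KO against Het (0.05), as did 19 and 15 of the 23 fibroblast markers (0.24 and 0.06). Col1a1, Col1a2, Col3a1 and Dcn are in both lists, so these counts are not independent. The numbers were then 13 and 8 of 14 pericyte, 16 and 14 of 18 endothelial, and 12 and 12 of 18 microglia markers. For choroid plexus, olfactory bulb, striatal and cortical markers they were 7 and 3 of 9, 9 and 4 of 10, 12 and 9 of 16, and 8 and 2 of 10. Likewise, 12 of the 21 collagen maturation genes then lay above 0 in both of these comparisons, and 16 and 12 of the 23 protease activators and relatives. The part of these cell types in the lists was not tested. The proteoglycan Vcan, a substrate of Adamts1 and its relatives, averaged 14196 ± 1659 in KO and 14012 ± 537 in Het against 12149 ± 603 in WT (SD, n = 3), with log2 fold changes of 0.22 ± 0.08 in KO and 0.21 ± 0.08 in Het, neither passing. The KO value was 0.13 without KO replicate 2 and 0.03 without the 4 libraries with olfactory bulb RNA. The laminin chain Lamc1 had 0.60 ± 0.22 in KO against WT. That value was 0.23 both with sex as a covariate and without those 4 libraries, which include every female library. Against Het, Lamc1 had 0.60 ± 0.22, which was 0.35 without Het replicate 3. Dcn had -1.61 ± 1.33 in Het against WT, and 0.31 without Het replicate 3. Eln, which encodes the elastin that Lox enzymes crosslink, had 0.35 ± 0.18 in KO against Het, and 0.17 without Het replicate 3.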

How the data were processed

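RNA from cortex of 9 mouse embryo libraries was sequenced with a stranded polyadenylated RNA kit, per the labels' protocols. The deposited table holds 1 signal value per gene and library, a gene count that the authors divided by a size factor, per the file headers and the values. Tools and build, in no stated role, were R 3.6.0, DESeq2 1.19.11, Salmon 0.11.2 and GRCm38, per the submitters' processing notes. Only 61.0% to 78.5% of values under 6 came within 0.1 of whole reads, so counts were not recovered and count tests were not used. Precision is limited by 3 libraries per genotype.

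Genotype means of log2(value + 1) were fitted with limma 3.58.1 in R 4.3.3 (lmFit, eBayes with trend) over all 9 libraries for 15069 genes with a mean of at least 10, two-sided, with Benjamini-Hochberg adjustment over all genes and a threshold of 0.05. Folds on this scale understate changes of low genes. The fit was also run on simulated counts of independent libraries with no outlying library. These data differ from that setting, so the run does not show how the fit performs on them. Symbols, positions and exon lengths (the union of all annotated exons, which can exceed the transcript used) came from GENCODE M21, where 18783 of 18820 IDs matched. Named members were the highest per kb in each family, the 4 with the smallest p per comparison and the 8 furthest from the other libraries in Het replicate 3; for each partner list, 2 per comparison. Members and lists were chosen with earlier results of these data known.

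The labels state no pairing of libraries. Deviations of same-numbered libraries from their group means correlated at 0.45, 0.10 and 0.47 between KO and Het in replicates 1, 2 and 3. Between KO and WT the values were -0.01, 0.06 and -0.03, and between Het and WT -0.07, 0.25 and 0.03. KO and Het replicates 1 are both female with olfactory bulb RNA, and replicates 3 are both male without it. The block fit used the replicate number over all 9 libraries, WT included, so its p-values rest on an uncertain pairing.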

Additional observations from a re-analysis of the deposited data

How the results depend on the processing

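The number of members called was 0 in all 3 comparisons under every alternative run: another pseudocount or filter, quantile or upper-quartile scaling, the replicate block, sex as a covariate, only the 6 libraries compared, each library left out, and, chosen after seeing the data, without the 4 libraries with olfactory bulb RNA. Leaving libraries out makes groups smaller, and smaller groups overlap less by construction. Without the 4 libraries, KO is 1 library, assumed to vary like the other groups, against 2 WT or 2 Het libraries. Shares in parentheses are those of all genes in the same fit. Within Het and KO the female libraries are those with olfactory bulb RNA, and no WT library is female, so the sex covariate cannot separate the 2. Otherwise the cause of a change was not tested.

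In KO against WT, 1 member had an unadjusted p under 0.05. The number was 2 with the replicate block (2.54%), 0 with sex as a covariate (3.53%) and 1 to 2 with a library left out (0.704% to 5.35%). These numbers do not cover the fit without the 4 libraries. There KO is 1 library, so no count at an unadjusted p is given. It was also 2 with only the 6 libraries compared, where the share of all genes was not computed. The 5 members without overlap became 3 under quantile normalization (6.45%), 35 without the 4 libraries (75.7%) and 5 to 17 with a library left out (17 without KO replicate 3, 29.5%). The median of 0.07 became -0.0502 with sex as a covariate and 0.0534 to 0.189 with a library left out. Fkbp10 reversed to -0.13 with sex as a covariate and to -0.0595 without the 4 libraries.

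In Het against WT, the 1 member at an unadjusted p under 0.05 became 3 with the replicate block (3.27%) and 3 with sex as a covariate (5.16%). It became 1 to 2 with a library left out (1.06% to 3.43%). The 2 without overlap became 1 under upper-quartile rescaling (6.79%), 12 without the 4 libraries (31.9%) and 2 to 12 with a library left out (12 without Het replicate 3, 21.9%), and the median ran from -0.10 to 0.16. With a library left out, values ran from -2.45 to 0.29 for Lox, -2.77 to 0.31 for Dcn, -1.57 to 0.32 for Adamts12, -1.35 to 0.11 for Adamts15, -0.84 to 0.43 for Mmp28, -0.79 to 0.38 for Adamts9 and -0.44 to 0.49 for Adamts5, each highest without Het replicate 3. Adamts5 was 0.0765 under quantile normalization.

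In KO against Het, the 1 member at an unadjusted p under 0.05 became 5 with the replicate block (6.53%) and 0 to 8 with a library left out. The 8 were found without Het replicate 1 (7.9%), and 0 without Het replicate 2 (2.52%) or KO replicate 2 (1.81%). For the fit without the 4 libraries, where KO is 1 library, no such count is given. The 2 without overlap became 1 under quantile normalization (7.92%), 1 under upper-quartile rescaling (7.84%), 21 without the 4 libraries (62.5%) and 2 to 9 with a library left out (9 without KO replicate 3, 27.3%). The median ran from -0.0422 without Het replicate 3 to 0.17 without KO replicate 3. Adamts5 was -0.0589 with sex as a covariate, -0.74 without the 4 libraries and -0.22 to 0.92 with a library left out. Low genes such as Timp1, Timp4 and Mmp19 rest on few reads, which limits what they can show.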
